A study of Caenorhabditis elegans with 20 samples.

Results

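The bHLH, T-box, forkhead, ETS and SOX genes of Caenorhabditis elegans are described here, as far as their names carry the family prefixes hlh, tbx, fkh, ets and sox with a number. They were chosen by symbol alone from the array's probe table, without use of measured values. The rule found 51 of the 16378 genes with a probe: 19 hlh, 15 tbx, 8 fkh, 7 ets and 2 sox genes. They lie on 52 features, since fkh-4 has 2, and the feature with the higher mean over all samples was used. The RefSeq gene table lists 63 symbols of these families; fkh-2, hlh-1, hlh-4, hlh-11, hlh-30, hlh-31, hlh-32, sox-2, tbx-30, tbx-33, tbx-42 and tbx-43 have no probe in the table and were not analysed here.

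RNA of 20 samples from mixed-stage worms was hybridised to spotted arrays in 7 groups. AIN-1 and AIN-2 are the worm's GW182-type partners of the microRNA Argonaute proteins, and the study asked which mRNAs come down with them. AIN-1 IP (n = 3) is RNA from an immunoprecipitate of AIN-1 from wild-type N2 worms, and Preimmune IP (n = 3) is its control with preimmune serum, also from N2. AIN-2::GFP IP (n = 3) is RNA from an immunoprecipitate of AIN-2::GFP from a single-copy integrated strain, line A. GFP IP (n = 3) is its control from an injection line that carries GFP alone under the ain-2 promoter. Total lysate RNA was measured for the AIN-2::GFP strain (n = 3), the promoter GFP line (n = 3) and N2 (n = 2). Each transgenic group is thus 1 line, and the ain-2 promoter decides where GFP alone is made. The labels name no deletion and no treatment. Replicates were independent biological ones, per the series text.

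Basic helix-loop-helix (bHLH) proteins bind DNA as pairs, and those of the achaete-scute and atonal type start neural fates, with the E protein HLH-2 as a common partner. T-box proteins specify early embryonic blastomeres and pharyngeal and body muscle in the worm. Forkhead, ETS and SOX proteins bind DNA through their winged helix, ETS and HMG domains and act in organ formation, vulval signalling, neuronal identity, ageing and fat storage. Many of these genes are used in a few cells or for a short time. In bulk RNA of whole worms, fewer cells of a type and less RNA per cell cannot be told apart.

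Signal is given in sample means: the deposited spot intensity divided by the mean of its sample, then quantile normalized, with a floor of 0.0187. A spot counted as above background where it exceeded a limit per sample, the median plus 2 median absolute deviations of 1327 chemoreceptor gene features. Mean signal before scaling lay between 629 and 907 scanner units in the AIN-1 IP samples and between 9 and 47 in the preimmune ones. In the GFP IP it was 370, 46 and 12 scanner units in replicates 1, 2 and 3, against 241 to 687 in promoter GFP total RNA. A single scanner unit was worth 0.111 sample means in preimmune replicate 1 and 0.0833 in GFP IP replicate 3, so weak spots of these samples move in coarse steps. Among cell type markers, all 3 measured neuron genes and all 4 of body wall muscle were above the limit in every total RNA sample, while 0 of 4 sperm genes and 0 of 1 glia gene were above it in all samples of any total RNA group.

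Most of these genes were dim. In total RNA, between 29.4% and 37.3% of the 51 members were above the limit in a sample, against 41.4% to 45.6% of all gene features in the same samples. Members above the limit in all 20 samples numbered 5 (hlh-3, hlh-15, tbx-8, fkh-7 and fkh-10), and 10.1% of all gene features were. All 8 total RNA samples exceeded it for 12 members, which adds hlh-33, tbx-11, tbx-36, fkh-9, ets-4, ets-5 and ets-6, against 33.3% of gene features. No total RNA sample exceeded it for 27 members, against 44.1% of gene features. Of all 51 members, 8 stayed below it in all 20 samples, against 26% of gene features: hlh-6, hlh-10, hlh-17, tbx-31, tbx-32, tbx-35, fkh-4 and ets-10.

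**Figure D1:**
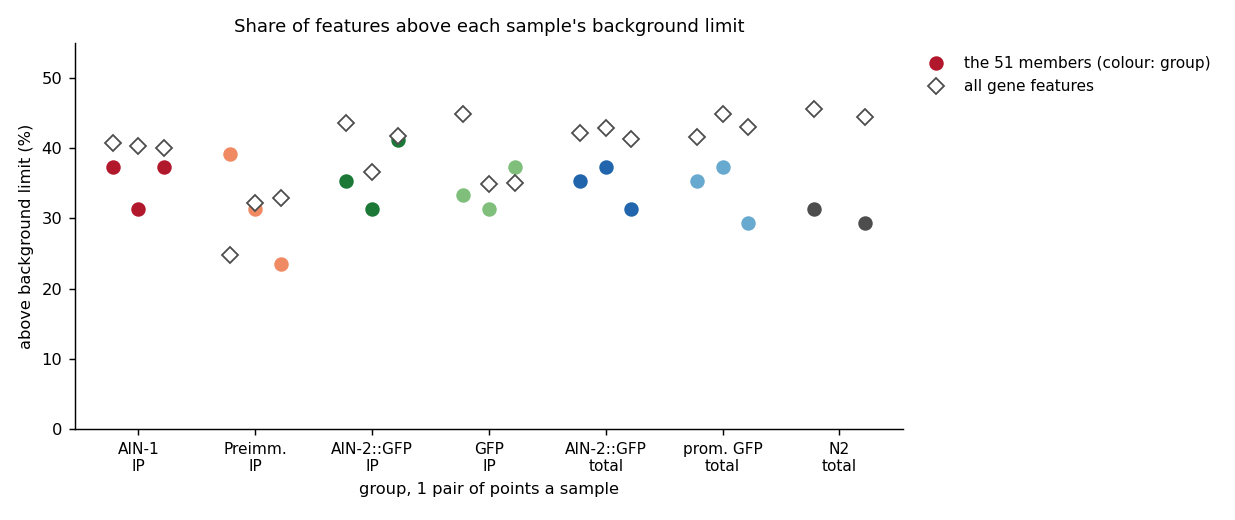
Share of features above the background limit (y axis, %) in each of the 20 samples, by group (x axis). Filled points are the 51 family members and open diamonds all gene features: members lie at 29.4% to 37.3% in total RNA, below the 41.4% to 45.6% of all gene features. They lie above all gene features in preimmune replicate 1 (39.2% against 24.8%) and GFP IP replicate 3 (37.3% against 35.1%).

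The share of members above the limit was counted by family. In the AIN-1 IP, 6 of 19 hlh genes, 5 of 15 tbx genes, 3 of 8 fkh genes and 1 of 7 ets genes were above the limit in all samples, and 0 of 2 sox genes. In N2 total RNA these were 3 hlh, 4 tbx, 3 fkh, 4 ets and 1 sox genes. For the AIN-2::GFP IP they were 4 hlh, 5 tbx, 3 fkh, 2 ets and 1 sox genes, against 3 hlh, 6 tbx, 4 fkh, 3 ets and 0 sox genes in total RNA of that strain. These counts were not tested. In all, 15 members were above the limit in all AIN-1 IP samples and 15 in all AIN-2::GFP IP samples, against 16 in AIN-2::GFP total RNA and 15 in N2 total RNA. As shares of the 51 members these are 29.4%, 29.4%, 31.4% and 29.4%, beside 34.8%, 31.9%, 37.1% and 41.7% of all gene features in the same order of groups. The 5 genes hlh-8, hlh-12, hlh-19, hlh-25 and hlh-29, all bHLH genes, exceeded it in an AIN-1 or AIN-2::GFP IP sample and in no total RNA sample. They are 9.8% of the members, beside 7.69% of all gene features. Of these, hlh-8, hlh-12, hlh-25 and hlh-29 exceeded it in 2, 3, 2 and 1 control IP samples too, and hlh-19 in none. A further 14 members exceeded it in control IP samples and nowhere else (27.5%, beside 10.4% of gene features). In preimmune replicate 1 and GFP IP replicate 3, where a single scanner unit was worth 0.111 and 0.0833 sample means, the limit was 0.255 and 0.214. The part of such coarse steps in this count was not tested.

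The brightest spot of each family was of a broadly detected gene, except in the SOX family. For hlh-3, an achaete-scute type gene of developing neurons, signal ranged between 0.577 and 3.02 sample means (median 2.14), above the limit in 20 samples. The tbx-8 spot, of a gene that acts with its neighbour tbx-9 in shaping the embryo, ranged between 2.40 and 15.1 (median 7.55), again above it in 20 samples. For fkh-7, the worm's FoxP-type gene, the range was 3.59 to 32.6 (median 8.88). The ets-4 spot, of a regulator of lifespan and fat stores, ranged from the floor to 18.2 (median 9.52) and was above the limit in 19 samples. The sox-3 spot, of a SoxB-type gene, reached 0.728 (median 0.165) and was above it in 11 samples. Different spots have different probes, so these values do not rank the genes by amount of mRNA.

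**Figure D2:**
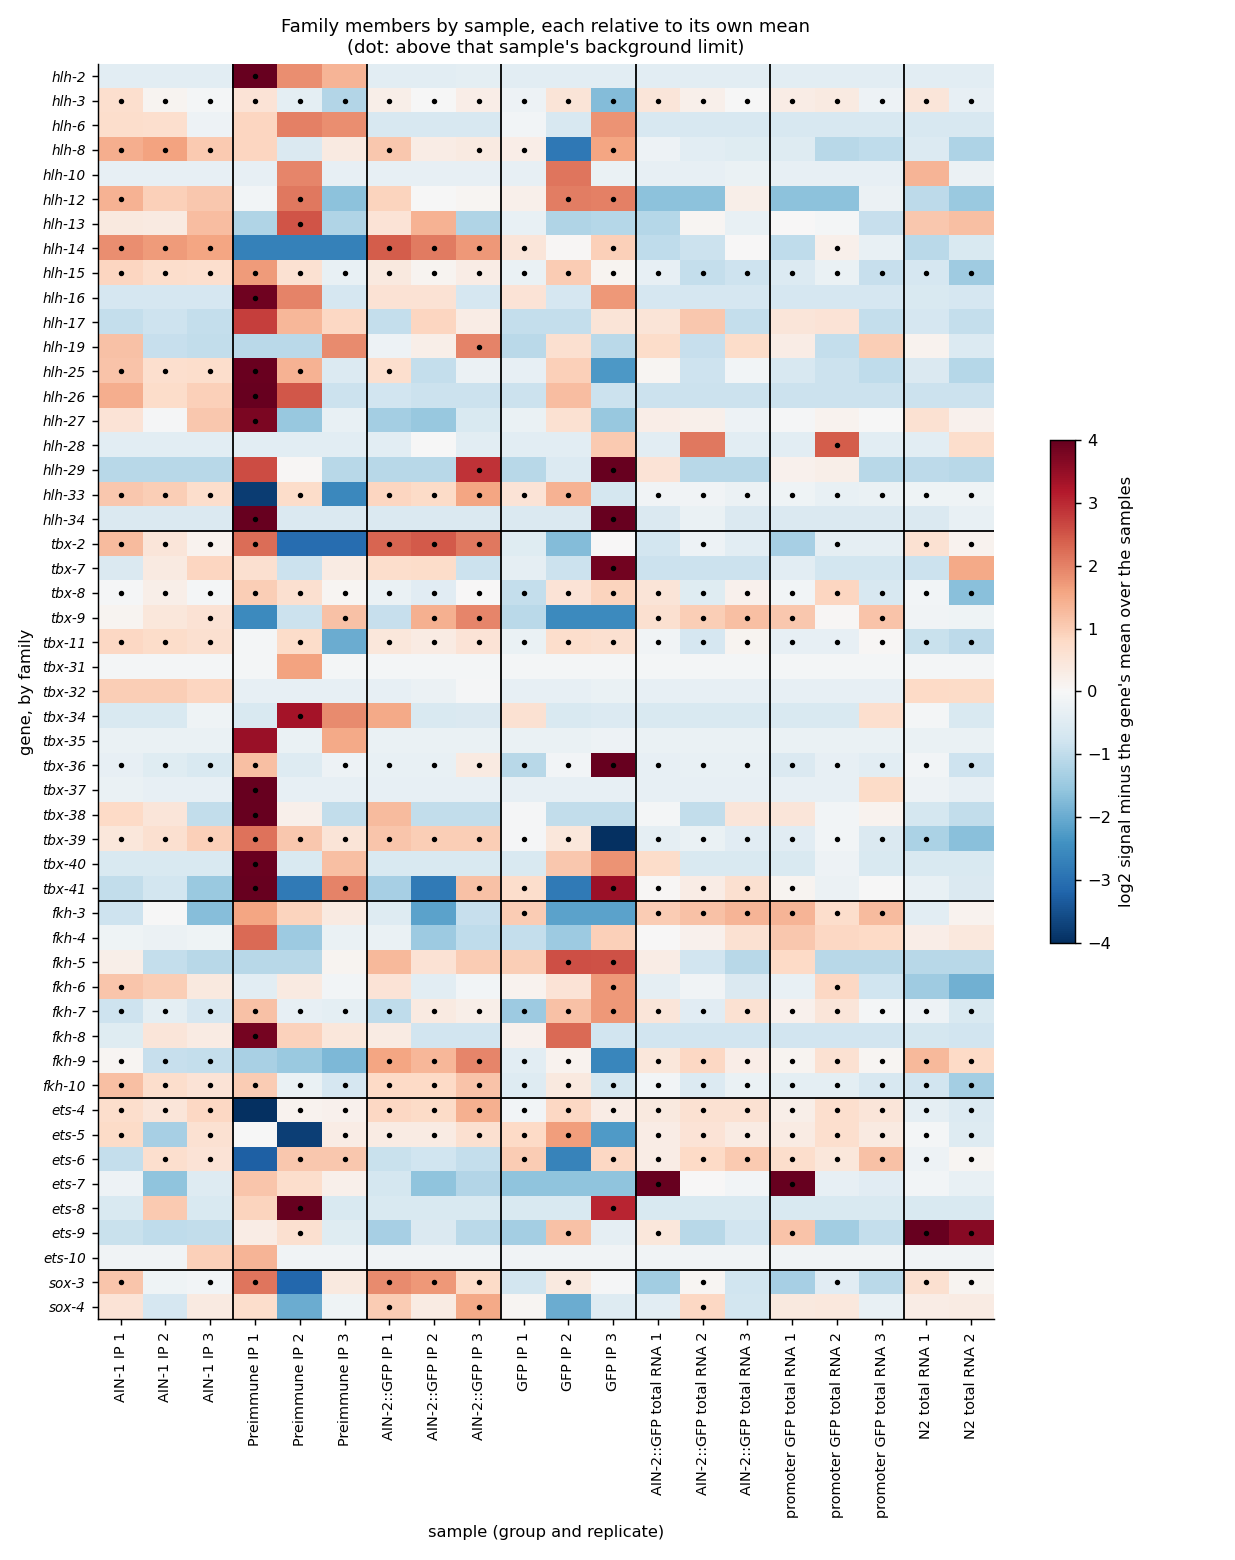
Signal of the 51 members (rows, by family) in 20 samples (columns), as log2 signal minus the gene's own mean over the samples, so that each row is compared only with itself. Black dots mark spots above the sample's background limit. The hlh-14 row is high in all 6 AIN IP samples and at the floor in the 3 preimmune ones, and the ets-9 row is high in the 2 N2 total RNA samples.

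For tests, gene features with a mean log2 signal above the 30th percentile were kept, which left 36 members (70.6%, against 70% of all gene features): 13 hlh, 9 tbx, 7 fkh, 5 ets and 2 sox genes. The filter looks at the mean over all groups, so a gene bright in 1 group can pass through it. The members ets-8, ets-10, fkh-8, hlh-2, hlh-6, hlh-10, hlh-16, hlh-28, hlh-34, tbx-31, tbx-32, tbx-34, tbx-35, tbx-37 and tbx-40 did not pass; among them are hlh-2, the E protein, and tbx-35, which specifies the MS blastomere. Just inside the threshold of -4.90 were hlh-26 (-4.89), tbx-7 (-4.87) and hlh-17 (-4.78), and just outside fkh-8 (-4.98), hlh-16 (-5.07) and hlh-6 (-5.11). A member was called higher or lower at a Benjamini-Hochberg adjusted p under 0.05 from limma over all 12222 features tested.

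The first comparison, AIN-1 IP with N2 total RNA, called 5 members: hlh-14, hlh-15, fkh-6 and fkh-10 rose and ets-9 fell. These are 11.1% and 2.78% of the 36 tested members, beside 6.1% of all features called higher and 5.65% called lower. Without further scaling 1.88% of features were called higher and 14.9% lower in that comparison. At an unadjusted p under 0.05 there were 10 members, or 27.8%, beside 26.4% of features. Against the preimmune IP, hlh-14 and hlh-33 were higher and hlh-17 was lower, 2 and 1 of 36, beside 9.44% of features called higher and 2.36% lower (7.58% and 6.05% with cyclic loess). The preimmune IP itself was higher than N2 total RNA for 2 members (hlh-15 and hlh-17) and lower for 3 (hlh-14, fkh-9 and ets-9), beside 3.89% and 9.17% of features. For hlh-14 and hlh-17 no preimmune or N2 sample was above its limit, so these calls lie below background. In the AIN-2::GFP IP against total RNA of its strain, hlh-14 rose and no member fell, beside 2.79% and 2.72% of features (5.51% in either direction). In the GFP IP against promoter GFP total RNA 0 members were called by limma, beside 0.00818% of features called higher, 0.0164% lower and 0.0245% in either direction, and 6 had an unadjusted p under 0.05 (16.7%, beside 10.9% of features). For the AIN-2::GFP enrichment minus the GFP enrichment the limma count was 0, beside 0.00818%, 0.0164% and 0.0245% of features, with 3 at an unadjusted p under 0.05 (8.33%, beside 8.02% of features). The AIN-1 IP comparison with N2 and the preimmune comparison with N2 share the N2 samples.

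**Figure D3:**
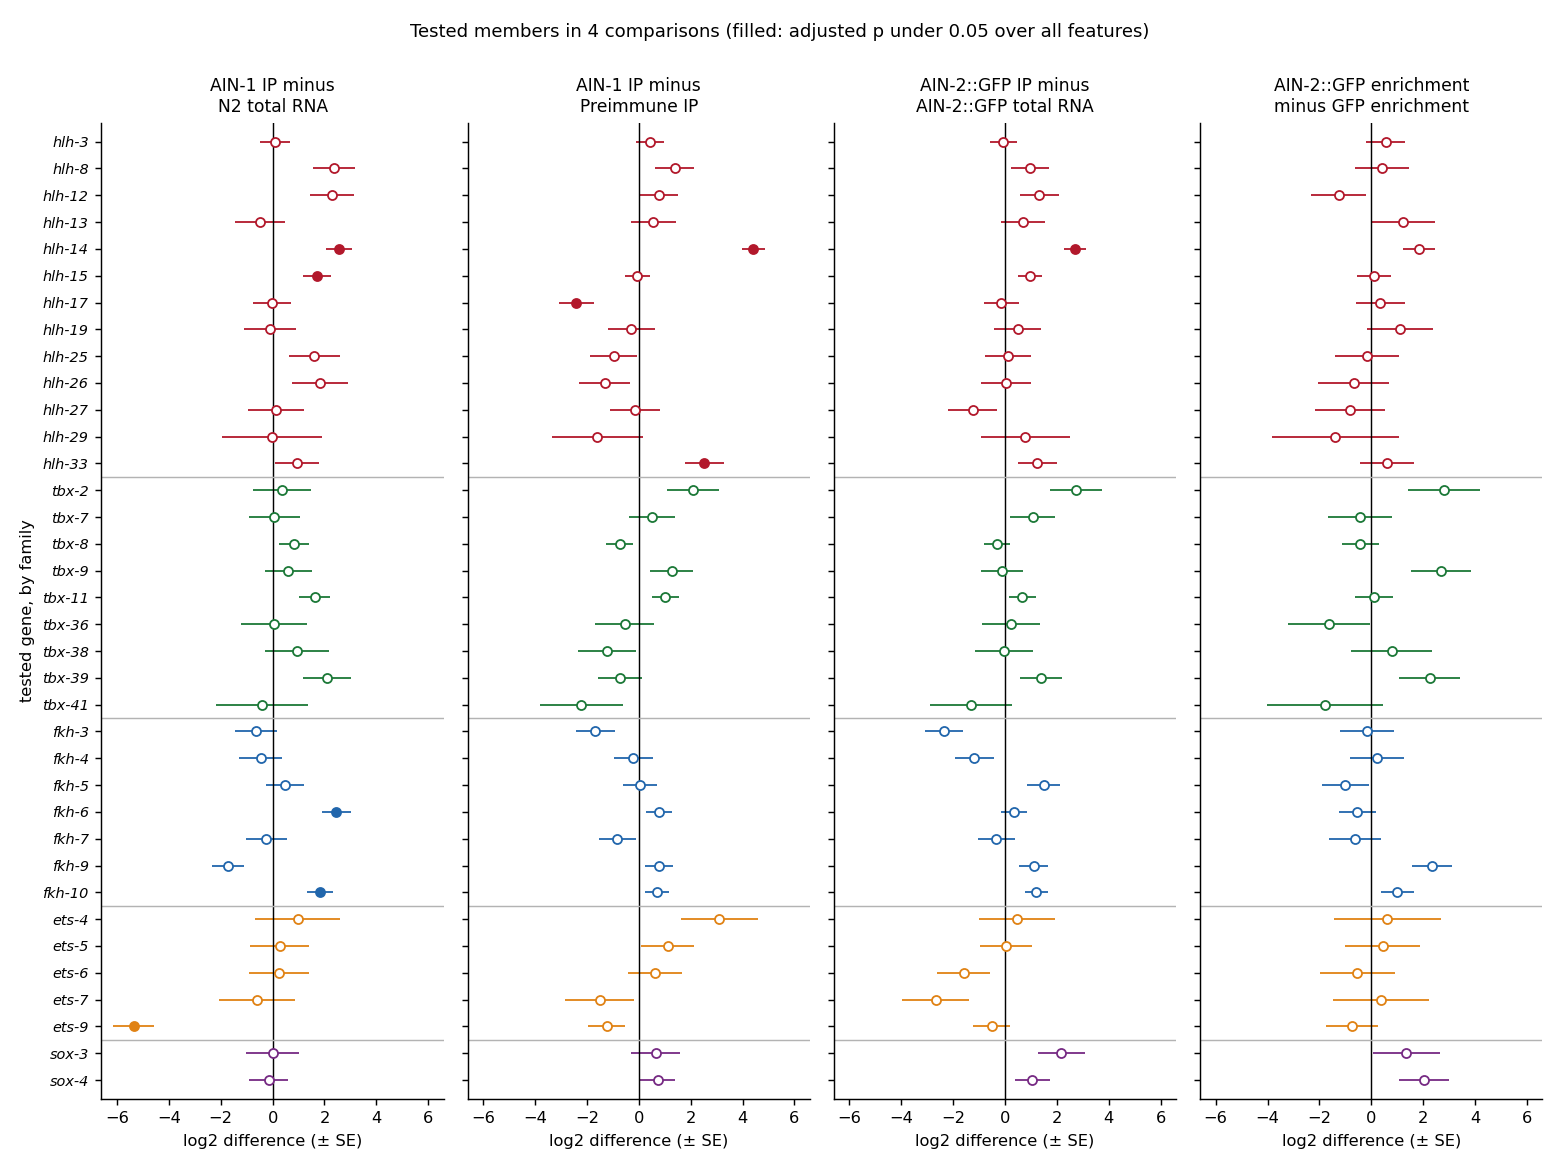
Log2 differences with standard errors (x axis) of the 36 tested members (rows, by family) in 4 comparisons, from the limma fit of all 20 samples. Filled points passed an adjusted p of 0.05 over all 12222 features; hlh-14 is filled in 3 of the 4 panels and no other gene in more than 1.

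hlh-14, an achaete-scute type proneural gene needed in the lineage that makes the PVQ, HSN and PHB neurons, passed in more of the comparisons than any other member. Its signal was 0.442, 0.394 and 0.366 sample means in the AIN-1 IP. It was at the floor in all 3 preimmune samples, where the spot read -3, 0 and -2 scanner units, and 0.0576 and 0.0793 in N2 total RNA. All 3 AIN-1 IP samples were above both kinds of control, and no preimmune or N2 sample was above its limit. The log2 difference was 2.56 ± 0.49 (SE) against N2 total RNA (limma adjusted p = 0.00386), which is at least 3.60-fold higher, counted against the limit. Against the preimmune IP it was 4.41 ± 0.44 (adjusted p = 7.98e-05), which is at least 1.61-fold higher counted against the limits of those dim samples. In the AIN-2::GFP IP the signal was 0.648, 0.518 and 0.410, against 0.0601, 0.0678 and 0.124 in total RNA of that strain. The groups did not overlap, and the difference was 2.69 ± 0.43 (adjusted p = 0.00225), at least 3.83-fold higher.

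In the GFP IP, hlh-14 had a signal of 0.171, 0.126 and 0.235, against 0.0599, 0.141 and 0.0992 in promoter GFP total RNA. These groups overlapped, with a difference of 0.86 ± 0.43 (adjusted p = 0.486). All 3 AIN-2::GFP IP samples lay above the 3 GFP IP samples, but the enrichments differed by 1.83 ± 0.61, which did not pass over all features (adjusted p = 0.346). The AIN-1 and AIN-2::GFP enrichments of hlh-14 differed by -0.14 ± 0.65 (adjusted p = 0.9995). Ordered by mean log2 signal, hlh-14 was highest in the AIN-2::GFP IP, followed by AIN-1 IP, GFP IP, promoter GFP total RNA, AIN-2::GFP total RNA, N2 total RNA and preimmune IP; the AIN IPs overlapped each other, and from the GFP IP to N2 total RNA each group overlapped the next. Summed signal of the 3 neuron markers was 9.28 to 10.3 in the AIN-1 IP, against 9.32 to 59.7 in preimmune samples and 10.4 to 11 in N2 total RNA. It was 11.6 to 13.5 in the AIN-2::GFP IP, against 10.4 to 12.7 in its total RNA. A single neuron marker, unc-119, behaved otherwise: it was higher in the AIN-1 than in the preimmune IP (3.52, adjusted p = 4.33e-04), and lower in the preimmune IP than in N2 total RNA (-3.70, adjusted p = 6.23e-04). With no preimmune sample above the limit, these are at least 1.23-fold and 1.44-fold. For hlh-14 the differences had the same signs, but its preimmune difference to N2 (-1.85, limma adjusted p = 0.0235) lay wholly below background. That hlh-14 call was lost with cyclic loess, with a floor at the 25th percentile and with a term for the array set, described below. It was lost also without N2 replicate 1 or 2. In total RNA, unc-119 also differed between strains. It was lower in AIN-2::GFP than in promoter GFP worms (-3.67, adjusted p = 0.0132). The average of both transgenic lines was higher than N2 (2.62, adjusted p = 0.0125). Mean log2 signal of unc-119 was 3.02 in promoter GFP, -0.75 in AIN-2::GFP and -1.49 in N2 total RNA, so the promoter GFP line stood out. The part of marker levels in the hlh-14 result was not tested.

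hlh-14 was the 1 member of 36 for which the AIN-1 IP passed as higher against both of its references, N2 total RNA and the preimmune IP, a share of 2.78% beside 2.59% of all features tested. No member was called higher in the AIN-2::GFP IP with an enrichment above that of the GFP IP, beside 0.00818% of features. The hlh-14 call against N2 rested on N2 replicate 1: without it the difference was 2.27 (adjusted p = 0.0877). It was also lost without further scaling (1.57, adjusted p = 0.107), where the median of all features moved to -1.02 and hlh-14 stood 2.59 above it, against 2.45 above it after quantile normalization. With a term for the array set it was 2.32 (adjusted p = 0.0621). That set, which holds all AIN-1 and preimmune IP samples and replicate 1 of the GFP IP and of the AIN-2::GFP IP, is a split known from earlier results and named in no label. All N2 total RNA lies outside it, so between the AIN-1 or preimmune IP and N2 the set and the group cannot be told apart within those samples, and the term is estimated from the other IPs. With the 6 transgenic total RNA samples in place of N2, hlh-14 was 2.20 higher in the AIN-1 IP (adjusted p = 0.00141).

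**Figure D4:**
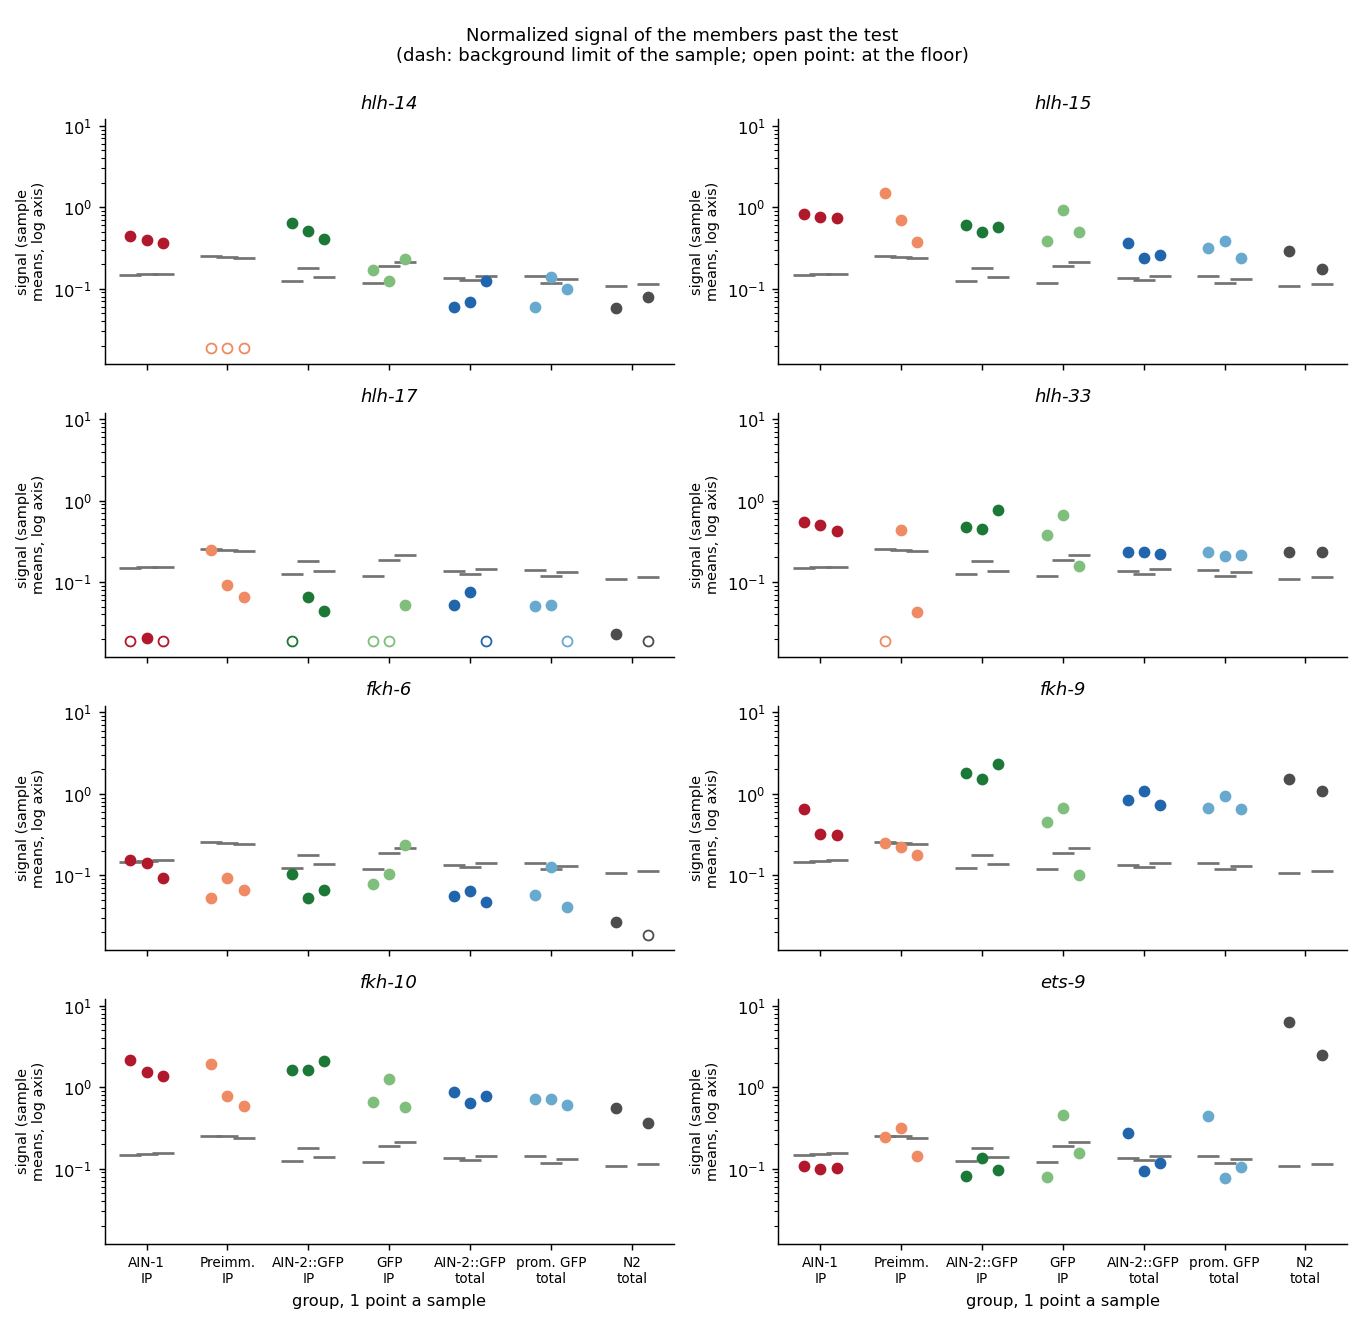
Normalized signal in sample means (y axis, log scale) of the 8 members past the test in any comparison, 1 point a sample in 7 groups (x axis). Grey dashes are each sample's background limit and open points lie at the floor of 0.0187. For hlh-14 all 6 AIN IP samples lie above their limits, and for ets-9 only the N2 total RNA samples exceed 2 sample means.

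For hlh-15 signal was 0.834, 0.749 and 0.729 in the AIN-1 IP, 1.49, 0.696 and 0.377 in the preimmune IP, and 0.289 and 0.174 in N2 total RNA. Both IPs lay above N2, by 1.72 ± 0.52 for AIN-1 (adjusted p = 0.0454) and 1.77 ± 0.52 for preimmune serum (adjusted p = 0.0382), and they overlapped each other. In the AIN-2::GFP IP hlh-15 read 0.608, 0.496 and 0.569, against 0.366, 0.240 and 0.262 in its total RNA, a difference of 0.97 ± 0.47 that did not pass (adjusted p = 0.268). The hlh-15 call held in 6 of the 20 fits that left out 1 sample for the AIN-1 IP and in 11 for the preimmune IP. With same-numbered samples as a random replicate block both were lost (adjusted p = 0.0787 and 0.0674), as they were with cyclic loess (0.135 and 0.0624) and with the array set as a term (0.117 and 0.0884). Without further scaling the AIN-1 difference was 0.92 (adjusted p = 0.243), or 1.94 above the median of all features, against 1.61 after quantile normalization. hlh-3 gave 0.09 ± 0.59 for the AIN-1 IP against N2 (adjusted p = 0.954). The distal tip cell gene hlh-12 had signals of 0.152, 0.111 and 0.123 in the AIN-1 IP, 1 of them above the limit, against 0.0282 and 0.0205 in N2 total RNA, with a difference of 2.28 ± 0.84 (adjusted p = 0.0926); the GFP IP was also above its total RNA, by 2.59 (adjusted p = 0.209).

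hlh-33, a bHLH gene, had signals of 0.551, 0.508 and 0.420 in the AIN-1 IP, against the floor, 0.430 and 0.0432 in the preimmune IP. These groups overlapped, since preimmune replicate 2 lay within the AIN-1 range. The difference was 2.52 ± 0.75 (adjusted p = 0.0415), a call that held in 4 of the 20 fits without 1 sample. N2 total RNA gave 0.232 and 0.231, and the AIN-1 IP was 0.94 ± 0.83 above it (adjusted p = 0.523). In the AIN-2::GFP IP hlh-33 read 0.471, 0.443 and 0.773, against 0.236, 0.235 and 0.219 in its total RNA, groups that did not overlap but differed by 1.24 ± 0.74 (adjusted p = 0.378).

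hlh-8, the Twist gene of the M mesoblast lineage, was above the limit in all 3 AIN-1 IP samples (0.373, 0.418 and 0.280) and in no N2 sample (0.0941 and 0.0582). Preimmune values were 0.248, 0.0916 and 0.176. The 3 AIN-1 IP samples exceeded both controls, but differences of 2.37 ± 0.83 against N2 (adjusted p = 0.0768) and 1.38 ± 0.75 against the preimmune IP (adjusted p = 0.242) did not pass. With the 6 transgenic total RNA samples in place of N2, hlh-8 (2.10, adjusted p = 0.0368), hlh-12 (2.10, adjusted p = 0.0405), hlh-14 and hlh-15 (1.31, adjusted p = 0.0401) were the 4 members called higher, beside 7.57% of all features, and 0 were called lower, beside 7.92%. That setting was chosen after the data were seen.

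hlh-17, an Olig-type gene of the cephalic sheath glia, was below the limit in all 20 samples, so no fold is given. Its spot read 5, 7 and 4 scanner units in the AIN-1 IP, 2, 5 and 2 in the preimmune IP and 19 and 12 in N2 total RNA. After scaling, the preimmune values became 0.248, 0.0916 and 0.0654 sample means, against 0.0227 and the floor in N2. The fit gave 2.40 ± 0.75 for the preimmune IP against N2 (adjusted p = 0.0459) and -2.42 ± 0.68 for the AIN-1 against the preimmune IP (adjusted p = 0.0316). These differences lie wholly below background, and hlh-17 passed the filter through the preimmune IP: its mean log2 signal over the other groups was -5.07, under the threshold of -4.90. The spot of hlh-17 may also take signal from its close relatives hlh-31 and hlh-32.

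The REF-1 family genes hlh-25, hlh-26, hlh-27, hlh-28 and hlh-29 carry a pair of bHLH domains and are switched on by Notch signalling in the embryo. They resemble each other closely, and hlh-25 lies next to hlh-26 with hlh-27 nearby, and hlh-28 next to hlh-29 in the RefSeq gene order, so their spots may share signal. None of the 4 tested members passed in the AIN-1 or AIN-2::GFP comparisons. hlh-25 read 0.212, 0.154 and 0.156 in the AIN-1 IP, 1.49, 0.250 and 0.0654 in the preimmune IP, and 0.0637 and 0.0432 in N2 total RNA. The AIN-1 IP differed from N2 by 1.61 ± 0.98 (adjusted p = 0.328), and the preimmune values, which span those of the AIN-1 IP, came from 6, 10 and 2 scanner units. hlh-29 was above the limit in 2 samples, at 7.05 in GFP IP replicate 3 (74 scanner units) and 0.305 in AIN-2::GFP IP replicate 3.

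No gene with a tbx name passed any of the comparisons in either direction. tbx-2, needed for the pharyngeal muscles that descend from the ABa blastomere, came nearest in the AIN-2::GFP IP. Its signal there was 0.776, 0.843 and 0.665, against 0.0927, 0.136 and 0.117 in AIN-2::GFP total RNA, and 0.110, 0.0468 and 0.157 in the GFP IP. Every AIN-2::GFP IP sample was above every sample of both controls. The difference to total RNA was 2.74 ± 0.99 (adjusted p = 0.125), and the excess over the GFP enrichment was 2.80 ± 1.40 (adjusted p = 0.658). The standard error comes from a spread shared by all groups, and the preimmune values of tbx-2 ran from the floor in replicates 2 and 3 to 0.728 in replicate 1, where the spot read 4 scanner units. Without preimmune replicate 1, tbx-2 passed both tests of the AIN-2::GFP IP at the same differences (adjusted p = 0.00122 and 0.0428).

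In the AIN-1 IP tbx-2 read 0.372, 0.217 and 0.170, against 0.235 and 0.170 in N2 total RNA, and the groups overlapped (0.35 ± 1.11, adjusted p = 0.893). The test of the AIN-1 against the AIN-2::GFP enrichment gave -2.38 ± 1.49 (adjusted p = 0.9995). tbx-39 read 0.708, 0.650 and 0.656 in the AIN-2::GFP IP, against 0.255, 0.272 and 0.242 in its total RNA and 0.321, 0.451 and the floor in the GFP IP. The IP samples lay above both, and the difference to total RNA was 1.39 ± 0.82 (adjusted p = 0.378). In the AIN-1 IP tbx-39 read 0.448, 0.515 and 0.634, which overlapped 1.49, 0.696 and 0.470 in the preimmune IP, against 0.136 and 0.103 in N2. tbx-39 lies next to tbx-40, a close relative.

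tbx-11 was above the limit in all total RNA samples, with 0.461, 0.432 and 0.403 in the AIN-1 IP, against 0.142 and 0.126 in N2, a difference of 1.62 ± 0.58 that did not pass (adjusted p = 0.0847). Preimmune values of tbx-11 were 0.248, 0.430 and 0.0654. The embryonic gene tbx-8 was above the limit in every sample, with 0.82 ± 0.57 for the AIN-1 IP against N2 and -0.30 ± 0.51 for the AIN-2::GFP IP against its total RNA. Its neighbour tbx-9, which can stand in for it in the embryo, read 0.117, 0.151 and 0.161 in the AIN-1 IP, against 0.0992 and 0.0973 in N2, and gave 0.60 ± 0.91 and -0.13 ± 0.81 in those comparisons. None of these 4 differences passed. In the GFP IP tbx-9 read 0.0514 and the floor in the other samples, below all of 0.232, 0.112 and 0.239 in promoter GFP total RNA, a difference of -2.81 ± 0.81 that did not pass either (adjusted p = 0.209). tbx-38, which acts with tbx-37 in specifying the anterior pharynx, was above the limit in 1 sample, preimmune replicate 1. tbx-41 read 6.56 in that sample, from 18 scanner units, and 1.42 in GFP IP replicate 3. tbx-36 lay between 0.146 and 0.728 in 19 samples and read 14.1 in GFP IP replicate 3 from a spot of 152 scanner units.

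Among forkhead genes, fkh-10 rose in the AIN-1 IP. Its signal was 2.15, 1.53 and 1.37 there, against 0.553 and 0.363 in N2 total RNA, with no overlap and a difference of 1.83 ± 0.51 (adjusted p = 0.0292). The preimmune IP, at 1.92, 0.784 and 0.595, overlapped the AIN-1 IP and differed from N2 by 1.15, which did not pass (adjusted p = 0.141). The fkh-10 call was lost without further scaling (1.33, adjusted p = 0.0641), where fkh-10 stood 2.35 above the median of all features, against 1.73 after quantile normalization. It was lost also with cyclic loess (1.79, adjusted p = 0.108), with the array set as a term (2.11, adjusted p = 0.0961), without AIN-1 replicate 1 (1.69, adjusted p = 0.0914) or 2 (1.79, adjusted p = 0.107), without N2 replicate 1 (2.03, adjusted p = 0.147) or 2 (1.66, adjusted p = 0.227), and against the 6 transgenic total RNA samples (1.15, adjusted p = 0.0590). In the AIN-2::GFP IP fkh-10 read 1.63, 1.62 and 2.08, against 0.878, 0.641 and 0.790 in total RNA and 0.657, 1.24 and 0.577 in the GFP IP. All 3 IP samples lay above both controls, and the difference to total RNA of 1.21 ± 0.45 did not pass (adjusted p = 0.139).

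fkh-9, which acts in neurons in memory and axon regeneration, had signals of 1.83, 1.54 and 2.36 in the AIN-2::GFP IP. These lay above its total RNA (0.835, 1.09 and 0.734) and the GFP IP (0.453, 0.673 and 0.0999) in every sample, with differences of 1.10 ± 0.55 to total RNA (adjusted p = 0.280) and 2.34 ± 0.77 to the GFP enrichment (adjusted p = 0.331). In the AIN-1 IP fkh-9 read 0.645, 0.325 and 0.317, below 1.51 and 1.07 in N2, a difference of -1.73 ± 0.61 that did not pass (adjusted p = 0.0813). The test of the AIN-1 against the AIN-2::GFP enrichment gave -2.83 ± 0.82, with an unadjusted p of 0.00347 and an adjusted p of 0.507. The preimmune values of 0.248, 0.221 and 0.176 were lower than N2, with a difference of -2.51 ± 0.61 (adjusted p = 0.0169), at least 5.14-fold lower. Cyclic loess removed this preimmune call of fkh-9 (-1.52, adjusted p = 0.201), and so did the array set term (-2.88, adjusted p = 0.0532). It was lost also on leaving out N2 replicate 1 or 2, so that 1 N2 sample remained, with differences of -2.48 and -2.53.

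fkh-6, which acts in the gonad in sheath development and sexual identity, was near background throughout. It read 0.154, 0.140 and 0.0935 in the AIN-1 IP, where replicate 1 was above the limit, against 0.0268 and the floor in N2 total RNA. The difference was 2.45 ± 0.56 (adjusted p = 0.0118), and the preimmune IP gave 0.0530, 0.0916 and 0.0654. No fold is given, since 2 of the 3 AIN-1 IP samples and both N2 samples were below the limit. The fkh-6 call was lost without further scaling (1.45, adjusted p = 0.250), where fkh-6 stood 2.46 above the median of all features, against 2.34 after quantile normalization. It was lost also with a floor at the 25th percentile (1.22, adjusted p = 0.105), with the array set as a term (2.54, adjusted p = 0.0778), without AIN-1 replicate 2 (2.22, adjusted p = 0.0692), N2 replicate 1 (2.57, adjusted p = 0.0963) or N2 replicate 2 (2.33, adjusted p = 0.123), and against the 6 transgenic total RNA samples (1.00, adjusted p = 0.133). fkh-3 read 0.0582, the floor and 0.0432 in the AIN-2::GFP IP, against 0.165, 0.184 and 0.210 in its total RNA, where all 3 were above the limit, a difference of -2.36 ± 0.73 that did not pass (adjusted p = 0.0717). The GFP IP of fkh-3 against its total RNA gave -2.20 (adjusted p = 0.274). fkh-3 lies next to fkh-4, a close copy, so their signals are uncertain. fkh-5 read 0.0790, 0.239 and 0.235 in the GFP IP, 2 of them above the limit, against 0.0694, the floor and the floor in promoter GFP total RNA, a difference of 2.50 ± 0.64 that did not pass (adjusted p = 0.160). It passed the low-signal filter through the GFP IP, since its mean log2 signal over the other groups lay under the threshold of -4.90. fkh-7 gave -0.25 ± 0.79 in the AIN-1 IP against N2 and -0.33 ± 0.70 in the AIN-2::GFP IP against its total RNA.

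ets-9 was the 1 member that fell in the AIN-1 IP. It read 0.108, 0.0996 and 0.101 in the AIN-1 IP and 0.248, 0.312 and 0.144 in the preimmune IP, against 6.39 and 2.51 in N2 total RNA. Only the N2 samples were bright: spots of 3270 and 2370 scanner units, against 23 to 201 in the 6 transgenic total RNA samples. The difference was -5.35 ± 0.79 for the AIN-1 IP (adjusted p = 7.94e-04), at least 26.6-fold lower, and -4.1 ± 0.79 for the preimmune IP (adjusted p = 0.00456). Transgenic total RNA read 0.273, 0.0936 and 0.118 in AIN-2::GFP worms and 0.445, 0.0764 and 0.104 in promoter GFP worms, with a difference to N2 of -4.76 ± 0.71 (adjusted p = 0.00525), as 1 of 36 members beside 0.655% of features. No member was higher, beside 0.385% of features, or 1.04% in either direction. Both N2 total RNA samples exceeded the AIN-1 IP, which came from N2 worms too. Against the 6 transgenic samples the AIN-1 IP differed by -0.59 (adjusted p = 0.552), so the call rests on the N2 reference, and without N2 replicate 1 the transgenic difference was -4.22 (adjusted p = 0.0859).

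Marker genes differed too. Summed signal of the 3 pharyngeal muscle markers was 1.00 to 1.98 in the transgenic total RNA samples, against 11.1 to 11.5 in N2. The 4 body wall muscle markers summed to 6.76 to 12.4 in transgenic and 20.2 to 20.3 in N2 total RNA, and the 4 intestinal markers to 47.0 to 102 in transgenic and 130 to 200 in N2 total RNA. The 7 embryo and oocyte markers went the other way, with 25.5 to 30.5 in transgenic and 16.7 to 19.6 in N2 total RNA. Their part in the results against N2 was not tested. For the AIN-1 IP these sums were 1.31 to 2.15 for pharyngeal muscle, 11.1 to 14.9 for body wall muscle, 21.1 to 28.1 for intestine and 18.9 to 22.8 for embryo and oocyte.

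ets-4 was bright in 19 samples. It read 11, 9.49 and 11.9 in the AIN-1 IP, the floor, 7.49 and 7.58 in the preimmune IP and 5.24 and 4.67 in N2 total RNA, so all AIN-1 IP samples exceeded both controls. The differences of 0.97 ± 1.64 to N2 and 3.10 ± 1.49 to the preimmune IP did not pass (adjusted p = 0.769 and 0.184). Preimmune replicate 1, where the spot read -6 scanner units, was the 1 sample at the floor, and without it ets-4 was 1.08 higher than N2 (adjusted p = 0.0214). Against the preimmune IP ets-4 did not pass in that fit either. ets-5, which specifies the CO2-sensing BAG neurons, was above the limit in all 8 total RNA samples and differed by 0.28 ± 1.14 in the AIN-1 IP against N2 and 0.043 in the AIN-2::GFP IP against its total RNA. ets-7 was above the limit in 2 samples, replicate 1 of AIN-2::GFP total RNA (1.45) and replicate 1 of promoter GFP total RNA (2.03). The other 6 total RNA samples of ets-7 lay between 0.0412 and 0.0572. These 2 samples share a replicate number, and their deviations from the group means correlated over all features (0.720); whether they shared an array was not tested.

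Of the SOX genes, sox-3 read 0.613, 0.542 and 0.280 in the AIN-2::GFP IP, against 0.0620, 0.174 and 0.0945 in its total RNA and 0.0996, 0.214 and 0.157 in the GFP IP. All IP samples were above both controls, and the difference to total RNA was 2.17 ± 0.92 (adjusted p = 0.196). In the AIN-1 IP sox-3 read 0.357, 0.145 and 0.154, against 0.254 and 0.175 in N2, with overlap and a difference of 0.0017 ± 1.03. sox-4 gave 1.05 ± 0.68 in the AIN-2::GFP comparison (adjusted p = 0.419) and -0.15 ± 0.76 in the AIN-1 one.

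Every AIN-1 IP sample was above every N2 total RNA and preimmune sample for 4 of 36 members: hlh-8, hlh-14, fkh-6 and ets-4. That is 11.1%, beside 16% of all features tested. Every AIN-2::GFP IP sample was above every sample of its total RNA and of the GFP IP for 6 members: hlh-14, tbx-2, tbx-39, fkh-9, fkh-10 and sox-3. That is 16.7%, beside 10.8% of all features. Under the study's own rank rule, 7 members were AIN-1 associated (hlh-8, hlh-14, hlh-25, hlh-33, tbx-11, fkh-10 and ets-4), beside 16.3% of features. By the same rule 9 of 36 were AIN-2 associated (hlh-14, hlh-15, hlh-33, tbx-2, tbx-11, tbx-39, fkh-9, fkh-10 and sox-3), beside 11.1%. The rule asks that enrichment ranks over total RNA pass in the IP and not in the control IP, without a direct comparison. Mean percentile ranks in IP and control were close for hlh-25 in the AIN-1 set (85.6 and 83.9). In the AIN-2 set they were close for hlh-15 (79.8 and 78.6) and tbx-11 (72.3 and 70.0). They lay further apart for the other members.

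Family medians of the log2 difference were small beside the range among members. Between the AIN-1 IP and N2 total RNA, the median was 0.94 for the 13 tested hlh genes and 0.60 for 9 tbx genes, -0.25 for 7 fkh, 0.24 for 5 ets and -0.08 for 2 sox genes, with 0.11 over all features. Without further scaling these medians became -0.07, -0.86, -0.18, -1.11 and -1.54, with -1.02 over all features, so the whole scale moved. Relative to the median of all features, the hlh median stood at 0.84 after quantile normalization and 0.95 without further scaling, the tbx median at 0.50 and 0.16, and the sox median at -0.18 and -0.52. The fkh median turned, from below all features (-0.36) after normalization to above them (0.84) without, and the ets median lay near them in both (0.13 and -0.09). Between the AIN-2::GFP IP and its total RNA the medians were 0.69 for hlh, 0.23 for tbx, 0.36 for fkh, -0.52 for ets and 1.61 for sox genes. The median of all features there was -0.0025. Single members ranged from -5.35 to 2.56 in the first comparison and from -2.68 to 2.74 in the second, both ranges set by genes described above and, at -2.68, by ets-7. The preimmune IP gave family medians of 0.98, 0.59, 0.58, -0.83 and -0.76 against N2, with -0.41 over all features.

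Genes of the same families with other names gave further calls, to be read beside the same shares of all features: 6.1% for rises of the AIN-1 IP over N2, 9.44% against the preimmune IP and 2.79% in the AIN-2::GFP IP. Of 12 tested bHLH genes, mdl-1, a Mad-type partner of Max, and ahr-1, the aryl hydrocarbon receptor, rose in the AIN-1 IP against N2 (2.44, adjusted p = 0.0103, and 2.33, adjusted p = 0.00139). For ahr-1 the preimmune IP was higher than N2 as well (1.37, adjusted p = 0.0282). Against the preimmune IP 3 were higher, mdl-1 (3.00), ref-1 (3.47) and mxl-3 (4.2), with adjusted p = 0.00162, 0.0391 and 0.0453; the ref-1 and mxl-3 calls held in 6 and 4 of 20 fits without 1 sample. In the AIN-2::GFP IP 1 was higher, mdl-1 (2.98, adjusted p = 0.00241). The FoxD-type gene unc-130, 1 of 5 forkhead genes, rose in the AIN-1 IP against N2 (3.49, adjusted p = 0.00862) and against the preimmune IP (3.16, adjusted p = 0.00868), and in the AIN-2::GFP IP (2.79, adjusted p = 0.0247). Without further scaling the unc-130 calls against total RNA were lost (2.98, adjusted p = 0.0741, and 2.59, adjusted p = 0.141). The unc-130 call against N2 was lost also with the array set as a term. The T-box gene mab-9 of the hindgut, the 1 tested of 2 T-box genes with other names, passed in the AIN-2::GFP IP against its total RNA (2.80, adjusted p = 0.0251), at least 1.62-fold higher, since no total RNA sample of that strain exceeded the limit. The GFP IP differed from promoter GFP total RNA by 2.54 for mab-9, so that the excess over the GFP enrichment was 0.26, and the mab-9 call was lost without further scaling (2.37, adjusted p = 0.131). The ETS gene lin-1, a target of Ras signalling in the vulva, rose in the AIN-1 IP against N2 (1.75, adjusted p = 0.0301), but passed in 16 of 20 fits without 1 sample and in 6 of 11 other settings, with 0.55 (adjusted p = 0.352) against the 6 transgenic total RNA samples. The SoxD-type gene egl-13 rose in the AIN-2::GFP IP (2.25, adjusted p = 0.0329, held in 14 of 20 fits) and in the AIN-1 against the preimmune IP (1.94, adjusted p = 0.0453, held in 4 of 20 fits). None of these genes was lower in these comparisons, and the enrichment over the GFP IP passed for 0 of them.

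Pathways in which family members act were called at low counts, beside 6.1% of all features higher and 5.65% lower against N2, 9.44% and 2.36% against the preimmune IP, and 2.79% and 2.72% in the AIN-2::GFP IP. Of 15 tested Notch pathway genes, 1 rose and 1 fell in the AIN-1 IP against N2, 3 and 1 against the preimmune IP, and 1 and 0 in the AIN-2::GFP IP against its total RNA. The Notch receptor gene lin-12 was higher in all 3 (3.13, adjusted p = 0.00197, 4.41, adjusted p = 1.33e-04, and 2.46, adjusted p = 0.00713). No sample of those 3 references was above the limit for lin-12, so these are at least 4.67-fold, 2.09-fold and 2.41-fold. The other receptor gene, glp-1, was the 1 lower against N2 (-4.49, adjusted p = 0.00291), at least 2.88-fold, with no AIN-1 IP sample above the limit; it was lower in the preimmune IP too (-3.68, adjusted p = 0.0103). Of 12 muscle and M lineage genes, 1, 3 and 0 were higher in these comparisons and 0 lower in each. Of 11 Ras pathway genes 2, 0 and 0 were higher, of 11 genes of embryonic lineage specification 2, 3 and 1, and of 3 SUMO genes 1, 0 and 0. The 16 autophagy and lysosome genes were the 1 list with more falls: 3 were lower in the AIN-1 IP against N2 and 2 in the AIN-2::GFP IP, with 0 higher in both and 1 higher against the preimmune IP. The preimmune IP was also higher than N2 for ptp-2 (1.72), elt-1 (2.00), pop-1 (3.87) and ulp-1 (1.44), all among these rises. It was lower than N2 for vha-16 (-4.50) and sqst-1 (-2.07), both among these falls. For lin-1, egl-17, lin-12 and cpr-1, called in the AIN-1 IP against N2 too, the preimmune IP did not pass. Medians of the AIN-1 IP against N2 were 0.72 for Notch, 1.03 for muscle, 0.56 for Ras, 1.02 for lineage, -0.69 for SUMO and -0.74 for autophagy and lysosome genes.

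Total RNA of the transgenic strains differed from N2 for ets-9 alone among the members, and the AIN-2::GFP strain differed from the promoter GFP line for 0 members by limma, beside 0.00818% of features, with 0 at an unadjusted p under 0.05. Between the AIN-1 and AIN-2::GFP enrichments 0 members passed, beside 0.00818% of features, and 3 (8.33%, beside 5.69% of features) had an unadjusted p under 0.05: ets-9, fkh-9 and fkh-6.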

How the data were processed

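Members were taken from the probe table by symbol, and the members, lists and tests were chosen with earlier results of these data known. The deposited intensity values are linear, background-subtracted spot signals that the authors divided by each sample's mean; this was read from the values. The scanner is not given in the sources used here, nor is the way background was taken off. From them, values were quantile normalized, floored at the 10th percentile of positive values and put on the log2 scale. Features above the 30th percentile of the mean entered a limma fit (version 3.58.1, R 4.3.3) with 7 group means and the dye over all 20 samples. The fit was tested on simulated data. Figures were drawn with Python 3.11.15. "At least N-fold" sets a group's mean against the limit or the spot's own signal, whichever was higher, where no sample of the dimmer group exceeded the limit. Named with all values were members past the test and the brightest of each family; tbx-2, tbx-39, hlh-8 and other members near the threshold, and single bright spots, were chosen after their values were seen. From other lists up to 3 genes with the smallest adjusted p were named. By Entrez ID, all 51 members were found in the RefSeq gene table (WBcel235), used for names and gene order only. Same-numbered AIN-1 and preimmune samples deviated together (correlations 0.247, 0.199 and 0.384), as did AIN-2::GFP and GFP IP samples (0.520, 0.318 and 0.257) and both transgenic total RNAs, so the numbers pair these samples, as read from the data; the fit has no pair term, and the replicate block was run as an alternative. Alternatives changed scaling, floor, filter, dye, weights, block, array set, reference and each sample.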

Additional observations from a re-analysis of the deposited data

How the results depend on the processing

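Counts of members called, of 36 unless the filter or scaling changes that number, moved with the processing as follows; the cause was not tested. In this section the share of all features called in the same fit is given for array weights only. Shifts of the other counts, also on leaving out a sample, are therefore not read as particular to the members. For the AIN-1 IP against N2 total RNA (5), the count was 2 without further scaling, 1 with the array set as a term and 14 with array weights, which called 50.2% of all features there, against 11.8% without them. For the preimmune IP against N2 (5) it was 0 with cyclic loess, 9 without the low-signal filter, 8 with the replicate block as a fixed number, 3 with the replicate block as a random pair and 2 with the array set. For the AIN-1 IP against its preimmune control (3) it was 5 without further scaling and 5 without the filter, and both replicate block fits gave 3. For the AIN-2::GFP IP against its total RNA (1) it was 2 without further scaling, 3 with a floor at the 25th percentile, 2 with the array set and 13 with array weights (37.2% of all features, against 5.51%). The GFP IP against its total RNA (0) gave 1 with the array set. The difference of the AIN-1 and AIN-2::GFP enrichments (0) gave 1 with the higher floor and 6 with array weights (9.69% of all features). Transgenic against N2 total RNA (1) gave 2 without the filter and 12 with array weights (32.7% of all features). AIN-1 associated members (1) numbered 0 without further scaling, 0 with the array set, 3 with array weights and 7 by the study's rank rule. AIN-2 associated members (0) numbered 9 by that rule.

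Leaving out each of the 20 samples gave 1 to 8 members for the AIN-1 IP against N2, 0 to 8 for the preimmune IP against N2, 1 to 5 for the AIN-1 against the preimmune IP and 1 to 5 for the AIN-2::GFP IP. It gave 0 to 3 for the GFP IP, 0 to 1 for the AIN-2::GFP against the GFP enrichment, 0 to 1 for transgenic against N2 total RNA, 0 to 2 for AIN-1 and 0 to 1 for AIN-2 associated members, and 0 in every fit for the other comparisons. The AIN-1 IP count against N2 was 3 without AIN-1 replicate 1, 2 without AIN-1 replicate 2, 8 without preimmune replicate 1, 8 without GFP IP replicate 3, 1 without N2 replicate 1 and 2 without N2 replicate 2. The preimmune IP count against N2 was 3 without AIN-1 replicate 1 or without replicate 1 or 2 of either transgenic total RNA, 8 without preimmune replicate 3 or GFP IP replicate 3, 0 without N2 replicate 1 and 1 without N2 replicate 2. The AIN-1 against preimmune count was 1 without any 1 AIN-1 IP sample and 5 without preimmune replicate 2. The AIN-2::GFP IP count was 5 without preimmune replicate 1 and 2 without preimmune replicate 2, GFP IP replicate 1 or GFP IP replicate 3. The GFP IP count was 3 without GFP IP replicate 1. The AIN-1 associated members numbered 0 and transgenic calls 0 without N2 replicate 1; without preimmune replicate 1 AIN-1 associated members numbered 2 (with fkh-10), and tbx-2 was the 1 AIN-2 associated member and the 1 above the GFP enrichment. Of the named calls, hlh-14 against the preimmune IP and in the AIN-2::GFP IP passed in all 20 such fits and in the 9 other settings, with log2 differences of 2.91 to 4.82 and 2.41 to 3.04. The difference of the AIN-1 and AIN-2::GFP enrichments of hlh-14 (-0.14) turned to 0.035 with cyclic loess, 0.034 without AIN-2::GFP IP replicate 1, 0.13 without N2 replicate 2 and 0.072 without AIN-2::GFP total RNA replicate 1, within a range of -0.45 to 0.13 over the fits without 1 sample. Simulated data of the AIN-1 IP against N2 over 12222 features had 100 features raised by 2 on the log2 scale and 100 raised by 4. Of these, 9 and 50 passed. Only these features were raised, in normally distributed noise at each feature's own spread and without a floor. In the measured comparison 11.8% of features were called, so the simulated rates are not its rates. A member that did not pass was not shown to be the same in both groups.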
